A study of Rattus norvegicus with 18 samples.

Results

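Ribosomal proteins and translation factors were followed in the rat lung after warm ischemia and reperfusion. The members were all genes on the array whose single platform symbol names a cytosolic ribosomal protein (Rpl, Rps, Rplp0 to Rplp2, Rpsa) or an initiation or elongation factor (Eif1 to Eif6, Eef1, Eef2), S6 kinases aside. The rule reads gene symbols only. Of 10411 genes with a single symbol, 100 met this rule, 44 ribosomal proteins and 56 factors. They were covered by 116 probe sets, and a gene with several was represented by the brightest. A total of 42 ribosomal proteins and 55 factors were bright enough to be tested. Rpl3l, Rpl30 and Eef1akmt4 were not.

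Lung RNA from male Sprague-Dawley rats had been hybridized to 18 Affymetrix rat 230A arrays, 1 array per lung sample. The 6 control lungs came from 6 rats and were taken directly after anesthesia and sacrifice, with no side given. In the operated rats, which were ventilated through a tracheotomy and had the chest opened on the left, the left hilum was clamped for 2 h. The left lung was then reperfused and ventilated for 30 min (3 lungs) or 3 h (3 lungs). The unclamped right lungs of the operated rats were taken at the same times (3 and 3). A comparison with control therefore also spans the anesthesia, ventilation and surgery, and the left and right groups of a time share rats. No age is given, and no sham-operated group is described.

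Cytosolic ribosomes consist of a small and a large subunit whose proteins are made in near-equal amounts. Initiation factors bring the initiator tRNA (eIF2) and the small subunit (eIF3, eIF1A) to the capped messenger RNA, which eIF4E, eIF4G and the helicase eIF4A recognise and unwind. Elongation factors then move the ribosome along the coding sequence. Under stress, kinases that phosphorylate eIF2 lower initiation and favour translation of the transcription factor ATF4. Active mTOR phosphorylates the eIF4E-binding proteins and so frees eIF4E, and when mTOR is inhibited they hold it. Messenger RNAs of ribosomal proteins and some factors start with a 5′ terminal oligopyrimidine tract (TOP), through which mTOR controls their translation.

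Transcript starts were compared first. RefSeq (GRCr8) held promoter windows for 88 of the 100 members, 37 ribosomal proteins and 51 factors. A TOP-like start, defined here as C at the annotated start base followed by at least 4 bases that are each C or T, was found in 10 of 37 ribosomal proteins (27.0%) and in 0 of 51 factors. The share among 18999 protein-coding genes was 2.83%. Such a stretch starting within 20 bases of the annotated start was present in 81.1% of the ribosomal proteins, 56.9% of the factors and 46.0% of all genes. The 10 starts are shown because they carry the feature that defines this class of messenger. Each line gives 12 bases before the annotated start and 18 from it, 5′ to 3′, with the pyrimidine run from the start in capitals.
Rpl14: cgggccctctccCTTCTCgctgagcgccgc
Rpl19: gaccagcaagctCTTTCCTTTCgctgctgc
Rpl22: gtgcgcccccctCCCTTTCTgcctcctctg
Rpl34: cttccttttcctCTTCCggggacggtgctt
Rpl35: cccttcctctttCTCTCgaaccgggcggcc
Rpl35a: ggtcttgccttcCTCTTTCCgccatcttgg
Rpl39: tctaatcgcgttCTTCCggcctgtcctttc
Rplp0: cgcaccgcacttCTCTCgccaggcgtcctc
Rps15: tgacaccgcttcCTTTTCCCagcagccgcc
Rps3a: ttgtacttccgcCCTTTTggctctcagagc

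The same 30 bases are shown for 6 factors that were higher than control, with the annotated start base in capitals. None holds the run at its start, which 0 of the 51 factors held. That count rests on the exact annotated start base, so it does not show that factors lack a tract. Within 20 bases of the start, 29 of the 51 factors held such a stretch, among them Eef1a1, Eef1b2, Eef1g and Eef2. Of 13 matched factors higher in any comparison with control, 4 held a TOP-like stretch within 20 bases (30.8%, beside 46.0% of all genes). These were Eif3d, Eif4a3, Eif4g3 and Eif4h, none of them among the 6 shown.
Eif2s1: cgtgggaccctaGttcgggattcacacata
Eif2s2: tgtgagaggtatCggtaggagctacgctga
Eif3b: aagcagggcggcCgagccgggtgaggagca
Eif4a1: gggcactccgccCtagattctaaggatcat
Eif4e: ggttgtgcgatcAgatcgatctaagatggc
Eif6: gcgtgtagagatTggagtcgtttggtgagc

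Probe set signals were analysed as log2(signal + 25) with limma over all 18 arrays, and a difference was called at a Benjamini-Hochberg adjusted p under 0.05 over the 10533 probe sets tested. Errors of differences are standard errors from limma. The labels give 6 control rats and 3 operated rats per time, so the p-values measure the spread between these lungs. Cell type markers were read from 5 lists. Lung markers were present on every array (summed signal of 7 measured of 8 listed, 42456 to 67007). No measured marker of any list was at 0, but the lymphocyte markers Cd2 and Cd3e were too dim to be tested. Mean signals were 23.5 for Tnnt2 and 25.8 for Tnni3 in left 3 h lungs, and 25.7 for Gzmm in right 3 h lungs. Neutrophil markers (6 measured of 7) summed to 2655 to 4465 in controls and to 6712 to 21351 in operated lungs. S100a8, S100a9 and Mmp8 were called higher in all 4 operated groups, whereas Cxcr1 was called lower in all but the right 3 h group (-0.51 to -0.82). The mean signal of Lcn2 was 1549 in controls, 1230 and 1142 in left and right 30 min lungs, and 3037 and 4610 at 3 h. Lymphocyte markers (7 of 9) summed to 2247 to 2744 in controls and to 1006 to 2354 in operated lungs, lowest in the right 3 h group. Cardiac markers (5 of 6) ranged from 155 to 3361 in controls, 151 to 273 in left 3 h lungs and 1959 to 9615 in right 3 h lungs. Erythroid markers (3 of 6) were 12306 to 16969 in controls and 16727 to 24286 in right 30 min lungs. In whole lung, fewer cells of a type and less RNA per cell cannot be told apart. The actin 3′ to 5′ signal ratio, a sign of RNA quality, was 1.31 to 1.78 on 15 of the arrays and 4.81 (left 30 min replicate 1), 2.93 (right 30 min replicate 3) and 2.30 (left 30 min replicate 3) on the others. The part of cell makeup and RNA quality in the results below was not tested.

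Few ribosomal protein messengers were called. Against control, limma called 0 higher and 1 lower of 42 in the left lungs at 30 min, where 19.9% of all probe sets were called. At 3 h in the left lungs it called 1 higher and 1 lower (4.76%), beside 37.8% of all probe sets. In the right lungs 0 rose and 1 fell at 30 min, beside 13.4%, and 3 rose and 0 fell at 3 h, beside 21.4%. Unadjusted p was under 0.05 for 6, 3, 5 and 6 of the 42 in these comparisons, in the same order, and for 33.7%, 46.5%, 28.7% and 34.6% of all probe sets. Of the 42 genes, 6 (14.3%) were called in at least 1 of the 4 comparisons with control, against 22 of 55 factors (40%) and 49.0% of all probe sets.

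Most of the ribosomal protein probe sets are bright, so the bright probe sets of the array are the nearer background. Among 283 probe sets with a mean log2 value over 12, 9.89% were called in the left lungs at 30 min, 21.2% in the left at 3 h, 8.13% in the right at 30 min and 13.8% in the right at 3 h. The 37 ribosomal proteins over that level gave 1, 0, 1 and 2 calls by limma, with 6, 1, 4 and 5 at an unadjusted p under 0.05. The spread within groups was similar, with a median residual SD of 0.134 for ribosomal proteins and 0.137 for bright probe sets. It was 0.174 for factors and 0.215 for all probe sets tested.

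The median log2 difference of the ribosomal proteins from control was -0.09 in the left lungs at 30 min, -0.02 in the left at 3 h, -0.09 in the right at 30 min and 0.11 in the right at 3 h. For the factors it was 0.04, 0.14, 0.05 and 0.12. The median over all probe sets was -0.07, -0.12, -0.04 and -0.04. Over the 283 bright probe sets, which include 37 of the ribosomal proteins, it was -0.043, 0.005, -0.05 and 0.109 in the same order. The right 3 h median of the ribosomal proteins was thus no higher than that of bright probe sets. The authors' scaling had given every array the same trimmed mean. Relative to the median of all probe sets, the left 3 h medians were 0.10 for ribosomal proteins and 0.26 for factors. The sign of these small medians depended on the scaling for ribosomal proteins. With quantile normalization the right 3 h median was -0.02 and the left 3 h median -0.09. Without left 3 h replicate 3 the left 3 h median was 0.08. With median centring of the arrays the left 3 h median was 0.14 and the left 30 min median 0.00. The factor medians stayed positive in all 4 comparisons under both scalings.

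**Figure D1:**
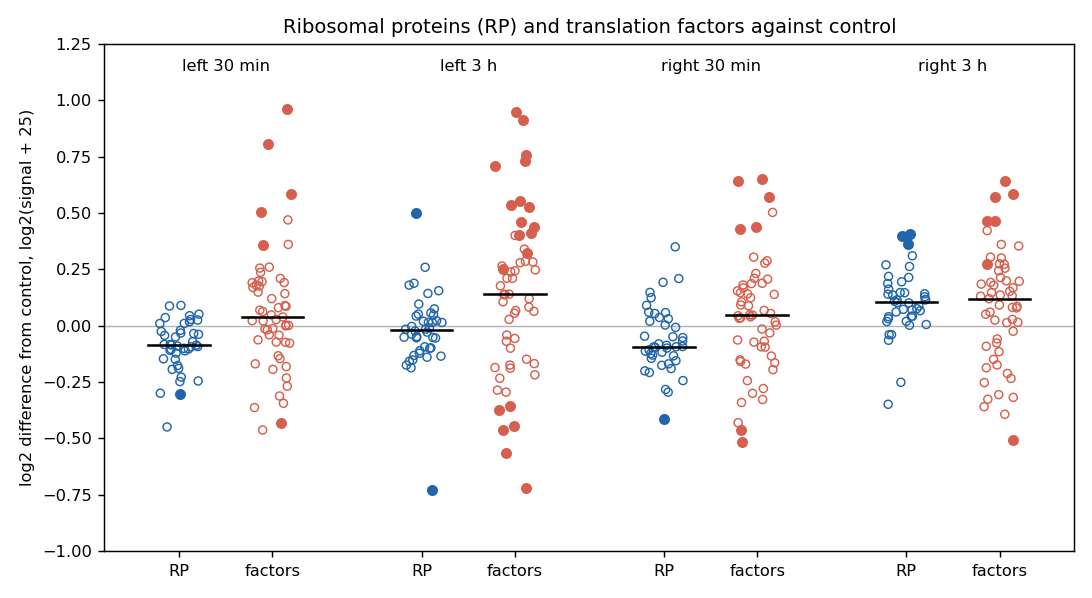
Log2 difference from control of each of 42 ribosomal proteins (blue) and 55 translation factors (red) in the 4 operated groups, on the log2(signal + 25) scale. Filled points were called by limma, open points were not, and the bar is the median; most ribosomal proteins lie near 0, with Rps4y2 lowest at -0.73, and in left 3 h lungs the SD over members is 0.172 for ribosomal proteins and 0.365 for factors.

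On single arrays many ribosomal proteins lay on the same side of the controls. The mean log2 value of the 42 ribosomal proteins was 12.25 to 12.33 in the 6 controls (mean 12.29, SD 0.031). It was 12.33, 12.15 and 12.12 in left 30 min replicates 1 to 3 and 12.38, 12.35 and 12.09 in the left 3 h replicates. It was 12.27, 12.16 and 12.24 in the right 30 min replicates, and 12.32, 12.42 and 12.44 in the right 3 h replicates. The left 3 h group thus had 2 arrays above and 1 array below all controls. In left 3 h replicate 3, 31 of the 42 genes were below the lowest control and 1 was above the highest, whereas replicates 1 and 2 had 4 and 4 below, 17 and 15 above. That replicate also had the lowest neutrophil sum of its group, 8341 against 21351 and 14475. Its actin ratio was 1.62, beside 1.61 and 1.49 in its group. Right 3 h replicate 2 had a neutrophil sum of 8336 and a ribosomal protein mean of 12.42. Left 30 min replicate 2 had 17227 and 12.15. Any link between these measures was not tested.

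At 30 min, left replicates 2 and 3 had 28 and 25 of 42 genes below the lowest control, and replicate 1, the array of highest actin ratio, had 3. The right 30 min replicates had 10, 24 and 18 below. The right 3 h replicates had 10, 20 and 27 above the highest control. The factors gave means of 9.98 to 10.02 in controls. In the operated lungs these were 10.11, 10.07 and 10.02 (left 30 min), 10.23, 10.16 and 9.99 (left 3 h), 10.12, 9.998 and 10.01 (right 30 min) and 10.06, 10.05 and 10.13 (right 3 h). Left 3 h replicate 3 was the lowest of its group in both classes.

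**Figure D2:**
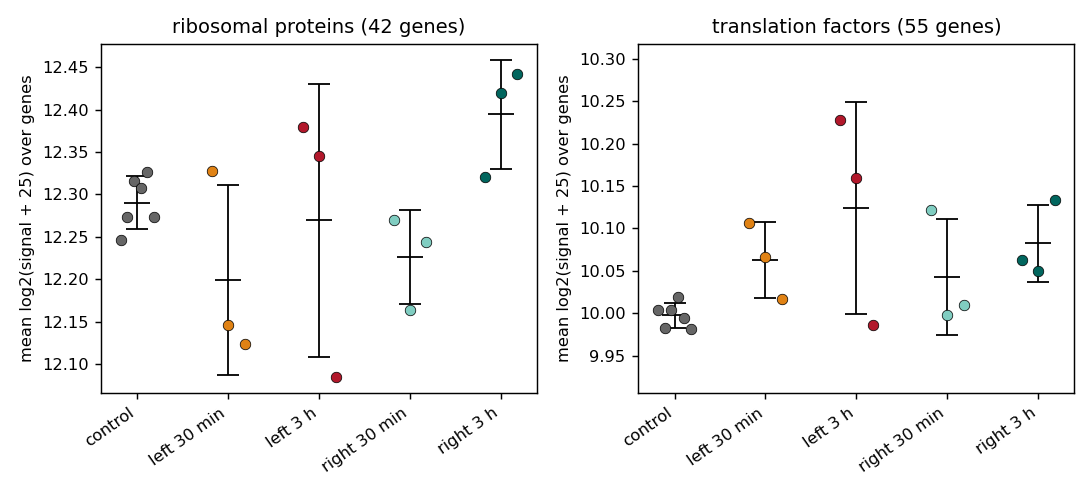
Mean log2(signal + 25) over the 42 ribosomal proteins (left panel) and the 55 factors (right panel) on each array, by group; points are arrays, bars the group mean and SD, and both axes span the same range without starting at 0. Left 3 h replicate 3 is the lowest array of its group in both panels.

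The ribosomal proteins that were called are few. Rpl11, a large subunit protein known for binding Mdm2 when ribosome assembly is disturbed, had signals of 5578 to 6533 in controls (median 5912). It had 5213, 5060 and 4279 in the left lungs at 30 min, all below the controls, and the difference was -0.30 ± 0.10 (limma adjusted p = 0.046). Rps15a, a small subunit protein, had 4948 to 8021 in controls (median 7013) and 4903, 5180 and 4885 in the right lungs at 30 min. These overlapped the lowest control, and the difference was -0.42 ± 0.13 (limma adjusted p = 0.041). Rps15a was not called in the other 3 comparisons with control, where it lay between -0.04 and 0.11.

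In the right lungs at 3 h the large subunit proteins Rpl6 and Rpl24 rose. Rpl6 had signals of 5238 to 6758 in controls (median 5666) and 7476, 7153 and 8489 in the right 3 h lungs, a difference of 0.40 ± 0.12 (limma adjusted p = 0.021). Rpl24 had 3255 to 4176 in controls (median 3865) and 4982, 5311 and 4433 in right 3 h lungs, a difference of 0.36 ± 0.12 (limma adjusted p = 0.041). For both genes the right 3 h lungs lay above all controls. In left 3 h lungs their differences were 0.26 and 0.18 and were not called.

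Rpl7l1, a paralog of Rpl7 known for ribosome assembly, was higher at 3 h on both sides. Its signals were 794 to 972 in controls (median 917), 1437, 1437 and 1051 in left 3 h lungs, and 1129, 1252 and 1270 in right 3 h lungs. No operated lung of that time overlapped the controls. The differences were 0.50 ± 0.14 and 0.41 ± 0.14 (limma adjusted p = 0.011 and 0.047). Its second probe set gave 0.21 and 0.00, neither called. Rps4y2, a copy of the small subunit gene Rps4, was dim, at 114 to 229 in controls (median 185) and 108, 57.1 and 120 in left 3 h lungs. The groups overlapped, and the difference was -0.73 ± 0.24 (limma adjusted p = 0.022).

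None of these 7 ribosomal protein calls was kept in every fit that left out 1 array. Leaving out any 1 of the 9 arrays ended the call of Rpl11 and of Rpl7l1 in the right lungs. The call of Rpl6 ended without right 3 h replicate 3, that of Rps4y2 without left 3 h replicate 2, and that of Rpl7l1 in the left lungs without left 3 h replicate 1 or 2. Those of Rps15a and Rpl24 ended in 7 and 6 of the 9 fits. The count in left 3 h lungs was 4, with 3 higher, without left 3 h replicate 3.

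Named partners and the stalk were not called. Rplp0, the stalk protein on which elongation factors act, had 5549 to 6434 in controls and differed by -0.12 to -0.07 in the 4 comparisons. Rps27l, the paralog of Rps27 known as a p53 target, differed by -0.25 to 0.03 with an SE of 0.18. Rpl22 differed by -0.05 to 0.22, Rpl3 by -0.10 to 0.00, and Rpl39 by -0.05 to 0.35. Rpl39 was called at right 30 min with quantile normalization (0.39) and with median centring (0.40), and Rplp0 at left 3 h with quantile normalization (-0.25). Rps6, the substrate of the S6 kinases, differed by -0.05 to 0.11 with an SE of 0.09. Rps23, the brightest in controls (mean 11866), differed by -0.15 to 0.01.

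In the right lungs the ribosomal proteins were higher at 3 h than at 30 min without any of them being called. The difference was positive in 39 of 42 genes, with a median of 0.17 beside -0.01 over all probe sets. In 16 genes (38.1%) all 3 lungs at 3 h lay above all 3 at 30 min, and in 0 below, where 6.28% of all probe sets did so in the higher direction. limma called 0 of the 42 (0.199% of all probe sets), and 9 had an unadjusted p under 0.05, as did 13.6% of all probe sets. Among the 16, Rps15a differed by 0.53 ± 0.15, Rpl26 by 0.35 ± 0.11, Rps3 by 0.33 ± 0.14 and Rpl5 by 0.26 ± 0.11. Rps3, a protein at the messenger entry of the small subunit, had 5375, 4937 and 5076 in right 30 min lungs and 6327, 6267 and 6797 in right 3 h lungs. The 283 bright probe sets, which include 37 of the ribosomal proteins, had a median of 0.14 in this comparison. The share of bright probe sets without overlap was not counted. With quantile normalization the median of the 42 genes fell to 0.03, and 27 were positive.

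Most calls among the translation factors fell outside the 9 elongation members, as did most of the 55 tested. limma called 5 of 55 higher and 1 lower in the left lungs at 30 min (10.9%, beside 19.9% of all probe sets, 8.7% higher and 11.2% lower). At 3 h in the left lungs 14 rose and 6 fell. The total of 36.4% is near the 37.8% of all probe sets, but 25.5% were higher beside 13.8%, and 10.9% lower beside 23.9%. In the right lungs 5 rose and 2 fell at 30 min (12.7% beside 13.4%, of which 6.07% higher and 7.29% lower). At 3 h 6 rose and 1 fell (12.7% beside 21.4%, of which 8.24% higher and 13.2% lower). Of the 283 bright probe sets, 40 were called higher and 20 lower in left 3 h lungs. They gave 19 and 9 at left 30 min, 16 and 7 at right 30 min, and 34 and 5 at right 3 h. The median control signal was 926.9 for the factors, 509.8 for all probe sets tested and 5670.5 for the bright ones. The part of signal level in the direction of the factor calls was not tested. With median centring of the arrays, the left 3 h split of the factors was 24 higher and 2 lower and the right 30 min split 5 and 1. With quantile normalization the left 30 min split was 5 and 2. With replicate number added to the fit, 2, 10, 0 and 2 factor calls were kept in left 30 min, left 3 h, right 30 min and right 3 h lungs. Control rats share only a number with operated rats. For ribosomal proteins the left 3 h split became 3 and 0 when centred and 1 and 4 with quantile normalization. The right 30 min split became 1 and 0 when centred and 1 and 1 with quantile normalization. The left 3 h factor count was 11 without left 3 h replicate 1, the right 3 h count 2 without right 3 h replicate 3, the left 30 min count 3 without left 30 min replicate 1 and the right 30 min count 4 without right 30 min replicate 1. Without the 3 arrays of highest actin ratio, which leaves 1 left 30 min and 2 right 30 min arrays, 2 factors were called in the left lungs at 30 min. The lone array is assumed there to vary like the other groups.

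eIF2 carries the initiator tRNA to the ribosome, and its alpha and beta subunits rose while the gamma subunit was not called. Eif2s2 (beta) had signals of 1271 to 1539 in controls (median 1456). They were 1867, 2191 and 2102 in left 30 min lungs, 3331, 2697 and 2256 in left 3 h lungs, 1957, 2115 and 1798 in right 30 min lungs, and 1969, 2396 and 2417 in right 3 h lungs. All 12 operated lungs lay above all controls. The differences were 0.51, 0.91, 0.44 and 0.64, each with an SE of 0.12, and all 4 were called by limma (adjusted p = 0.0066, 3.1e-05, 0.022 and 0.0012). The right 30 min call ended without right 30 min replicate 1 or 2. Eif2s2 and Eif3b were the 2 of 55 factors called in all 4 comparisons with control, beside 641 of 10533 probe sets.

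Eif2s1 (alpha), which bears the serine that the stress kinases phosphorylate, had 890 to 982 in controls (median 918). It had 1145, 1268 and 1170 in left 30 min lungs, 1582, 1373 and 1190 in left 3 h lungs, and 1206, 1297 and 1367 in right 3 h lungs. These 9 lungs all lay above the controls, and the differences were 0.36, 0.55 and 0.47 (SE 0.12; limma adjusted p = 0.045, 0.0020 and 0.011). The left 30 min call ended with any 1 of its 9 arrays left out, and the right 3 h call without right 3 h replicate 3. In the right lungs at 30 min, 1406, 1191 and 906 overlapped the controls, and the difference of 0.30 was not called. Without the 3 arrays of highest actin ratio it was 0.47 and called. Eif2s3 (gamma) had 532 to 810 in controls and differed by -0.20 to 0.27 with an SE of 0.17.

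The 250 bases before the annotated start of Eif2s2 (chr3:163855571-163855820, minus strand, RefSeq GRCr8) are shown because the gene rose in every operated group together with Atf4, described below. They hold a match, in capitals, to TGATGNAA, the core of the composite element that ATF4 and C/EBP proteins are known to bind.
Eif2s2 upstream: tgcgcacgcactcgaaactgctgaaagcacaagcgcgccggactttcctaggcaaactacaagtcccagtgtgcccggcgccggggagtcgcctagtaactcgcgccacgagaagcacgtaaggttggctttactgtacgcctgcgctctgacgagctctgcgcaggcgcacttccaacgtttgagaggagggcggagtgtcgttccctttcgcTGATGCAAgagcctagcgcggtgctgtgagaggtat

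On either strand of the 300-base windows, TGATGNAA occurred in 1 of 51 factors (1.96%), 1 of 37 ribosomal proteins (2.70%, Rpl6) and 3.61% of all protein-coding genes. A match is a description of these letters and not a binding site. Any link between Atf4 and the rise of Eif2s2 was not tested.

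eIF2B reloads eIF2 with GTP, and its 5 subunits gave 1 call. Eif2b5, the catalytic subunit, had 316 to 425 in controls (median 384) and 238, 321 and 260 in left 30 min lungs, a difference of -0.43 ± 0.11 (limma adjusted p = 0.013). Replicate 2 overlapped the controls, and the call ended without left 30 min replicate 1 or 3. A second probe set of Eif2b5 gave -0.37 at 30 min, not called, and -0.44 at 3 h, called. Eif2b1 to Eif2b4 lay between -0.10 and 0.30 in the 4 comparisons.

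eIF3 is the large scaffold on the small subunit, and 1 core member rose in every operated group. Eif3b had 711 to 1028 in controls (median 882). It had 1612, 1239 and 1116 in left 30 min lungs, 1483, 1346 and 1005 in left 3 h lungs, 1447, 1210 and 1441 in right 30 min lungs, and 1184, 1258 and 1492 in right 3 h lungs. Of these 12 lungs, left 3 h replicate 3 alone overlapped the controls. The differences were 0.59, 0.54, 0.64 and 0.58 (SE 0.15; limma adjusted p = 0.013, 0.012, 0.012 and 0.013). Each call ended when 1 array was left out: left 30 min replicate 1, left 3 h replicate 1 or 2, right 30 min replicate 1, or right 3 h replicate 3.

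Eif3k, a small peripheral subunit, fell in the right lungs at 30 min, from 1095 to 1341 in controls (median 1150) to 827, 937 and 730, with a difference of -0.52 ± 0.13 (limma adjusted p = 0.017). It was -0.31, -0.17 and -0.06 in the left 30 min, left 3 h and right 3 h lungs. The call ended without right 30 min replicate 1 or 3. Eif3l, the partner of Eif3k, fell in left 3 h lungs by 0.36 on the log2 scale (limma adjusted p = 0.046). Eif3j rose there by 0.46 and Eif3d by 0.25 (limma adjusted p = 0.0081 and 0.0499). Eif3j and Eif3d were named after their values were seen. The other 6 of the 11 tested subunits were not called in any comparison with control. The calls of Eif3l and Eif3d ended in 7 and 8 of the 9 fits that left out 1 array, and that of Eif3j without left 3 h replicate 1.

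The helicase subunits of eIF4 parted by gene. Eif4a1, the main eIF4A of proliferating cells, had 1998 to 2269 in controls (median 2142). It had 4032, 3777 and 2800 in left 3 h lungs and 2781, 2642 and 4356 in right 3 h lungs, all above the controls. The differences were 0.71 and 0.57 (SE 0.17; limma adjusted p = 0.0039 and 0.024), and the right 3 h call ended without right 3 h replicate 3. At 30 min all 6 operated lungs also lay above the controls, with differences of 0.36 (left) and 0.50 (right) that were not called.

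Eif4a3, which serves in the exon junction complex, had a narrow range of 1302 to 1403 in controls (median 1387). It had 1577, 1608 and 1522 in left 30 min lungs, 2020, 1943 and 1637 in left 3 h lungs, 1812, 1747 and 2000 in right 30 min lungs, and 1703, 2059 and 1940 in right 3 h lungs. All 12 operated lungs lay above the controls. The differences were 0.20, 0.44, 0.43 and 0.46 (SE 0.09), of which the last 3 were called by limma (adjusted p = 0.0018, 0.0061 and 0.0023). Eif4a2, the paralog known for microRNA-linked repression, had 4190 to 4847 in controls and differed by -0.07 to 0.06 with an SE of 0.10.

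The cap-binding protein Eif4e rose in the left lungs at 3 h. It had 1372 to 1468 in controls (median 1432) and 3089, 2185 and 1986 in left 3 h lungs, with no overlap and a difference of 0.73 ± 0.14 (limma adjusted p = 0.00071). The right 3 h lungs, at 1744, 1698 and 1835, were also above all controls, but the difference of 0.30 was not called. Left against right at 3 h gave 0.43 ± 0.16 (limma adjusted p = 0.17). A second, dimmer probe set of Eif4e gave 0.12 at left 3 h, not called. Eif4e3, a cap-binding paralog, went the other way. It had 308 to 394 in controls (median 360), 337, 222 and 210 in left 3 h lungs, where replicate 1 overlapped the controls, and 295, 253 and 211 in right 30 min lungs. Both differences were -0.47 ± 0.13 (limma adjusted p = 0.012 and 0.029). The left 3 h call ended without left 3 h replicate 2 or 3, the right 30 min call without right 30 min replicate 2 or 3 and without control replicate 1, 2 or 6. Eif4e2 differed by -0.08 to 0.21.

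The upstream 250 bases of Eif4e (chr2:229740503-229740752, plus strand, RefSeq GRCr8) hold 2 copies of CACGTG, in capitals, the E-box that MYC is known to bind. They are shown because the motif was more frequent among the factors than among all genes.
Eif4e upstream: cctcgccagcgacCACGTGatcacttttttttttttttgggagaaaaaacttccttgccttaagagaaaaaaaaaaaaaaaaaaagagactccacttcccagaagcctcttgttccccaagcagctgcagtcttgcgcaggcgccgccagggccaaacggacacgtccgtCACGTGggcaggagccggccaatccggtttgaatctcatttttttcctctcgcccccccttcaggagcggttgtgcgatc

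In the 300-base windows CACGTG, which reads the same on both strands, occurred in 11 of 51 factors (21.6%), 3 of 37 ribosomal proteins (8.11%) and 7.69% of all protein-coding genes. Of the 13 matched factors that rose in any comparison with control, 3 held it (Eif3b, Eif4e and Eif4h). This share of 23.1% is near the 21.6% of all 51 factors. Searched on both strands, CCGGAA, the core bound by ETS factors, was in 49.0%, 35.1% and 19.2% of the 3 groups. GAANNTTC, part of the heat shock element, was in 5.88%, 5.41% and 8.36%.

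Eif4g3, a scaffold paralog, was highest in the left lungs at 30 min. It had 325 to 425 in controls (median 376), 594, 738 and 685 in left 30 min lungs, 519, 416 and 573 in left 3 h lungs, 475, 600 and 630 in right 30 min lungs, and 454, 361 and 483 in right 3 h lungs. The 30 min lungs of both sides lay above all controls. The differences were 0.81, 0.40, 0.57 and 0.20 (SE 0.13), and the first 3 were called by limma (adjusted p = 0.00042, 0.023 and 0.0088). The left 3 h call ended without left 3 h replicate 1 or 3. The probe sets used for Eif4g1 and Eif4g2 were not called, at 0.01 to 0.21 and -0.03 to 0.17. A second, dimmer probe set of Eif4g1 fell by 1.02 at left 30 min (limma adjusted p = 0.0013), where the brighter gave 0.21.

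Of the eIF4A helpers, Eif4h rose at 3 h on both sides, by 0.32 ± 0.09 (left) and 0.28 ± 0.09 (right), from 2401 to 2935 in controls (limma adjusted p = 0.011 and 0.042). It had 3269, 3208 and 3433 in left 3 h lungs and 3283, 2969 and 3338 in right 3 h lungs, all above the controls. The right 3 h call ended in 6 of 9 fits that left out 1 array. Eif4b was not called, at -0.34 to -0.15 in the 4 comparisons. Its second probe set was called lower in the left lungs at 30 min (-0.52) and 3 h (-0.37) and in the right at 30 min (-0.54).

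Among the small factors, Eif1a and Eif6 rose in the left lungs at 3 h. Eif1a, which helps to scan for the start codon, had 362 to 748 in controls (median 551) and 1413, 1144 and 722 in left 3 h lungs, so that replicate 3 overlapped the controls. The difference was 0.95 ± 0.21 (limma adjusted p = 0.0023), the largest of any factor in that comparison. Its X-linked counterpart Eif1ax differed by 0.06 to 0.14 in the 4 comparisons with an SE of 0.10. Eif6, which keeps the subunits apart, had 1446 to 1785 in controls (median 1661) and 3771, 2760 and 2001 in left 3 h lungs, all above the controls, a difference of 0.76 ± 0.17 (limma adjusted p = 0.0027). Both genes gave 0.14 to 0.42 in the other operated groups, with no call. Eif1b (0.21 to 0.29), Eif5a (0.06 to 0.28) and Eif5b (-0.10 to 0.14) were not called. With each array centred on its median, Eif1b and Eif5a were called at left 3 h, at 0.40 and 0.44.

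**Figure D3:**
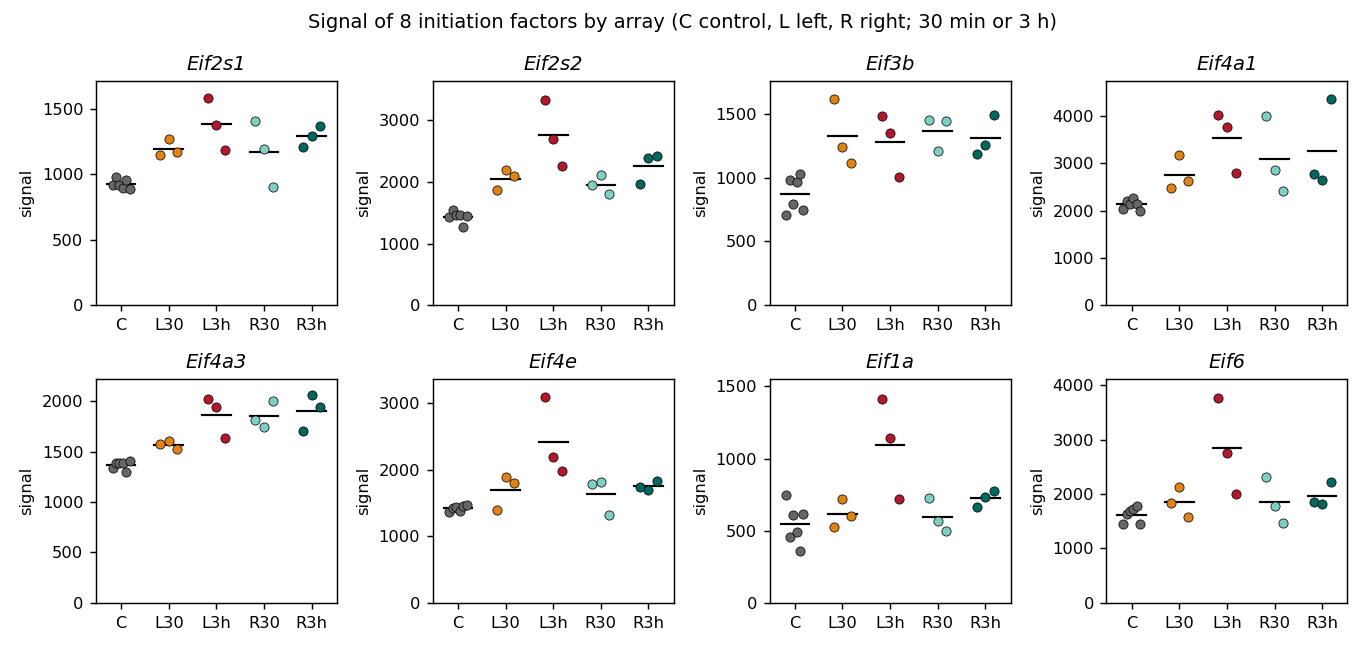
Signal of 8 initiation factors on each array, on linear axes from 0, with the group mean as a bar (C control, L left, R right). Eif2s2 and Eif4a3 lie above all controls in every operated lung, whereas Eif1a and Eif6 are highest in left 3 h lungs.

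The 4 eIF2 kinases did not move as a group. Eif2ak2 (PKR, which senses double-stranded RNA and is interferon-induced) rose from 176 to 263 in controls (median 214) to 524, 430 and 371 in left 30 min lungs. It had 422, 283 and 267 in left 3 h lungs and 319, 370 and 357 in right 30 min lungs, all above the controls, and 271, 339 and 239 in right 3 h lungs, which overlapped them. The differences were 0.96, 0.53, 0.65 and 0.36 (SE 0.16), and the first 3 were called by limma (adjusted p = 0.00045, 0.014 and 0.012). The left 3 h call ended without left 3 h replicate 1.

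Eif2ak1 (HRI, the heme-regulated kinase) fell in the left lungs at 3 h, from 741 to 879 in controls (median 819) to 460, 570.5 and 593, a difference of -0.56 ± 0.11 (limma adjusted p = 0.00091). A second probe set of this gene gave 0.35 there, not called, and 0.67 in the right 3 h lungs, called, where the first gave -0.31. The direction of Eif2ak1 therefore depended on the probe set. Eif2ak3 (PERK, of the endoplasmic reticulum) fell in left 3 h lungs from 385 to 482 in controls (median 435) to 324, 337 and 323, a difference of -0.37 ± 0.14 (limma adjusted p = 0.0495) that was lost in 8 of 9 fits that left out 1 array. Eif2ak4 (GCN2, which senses uncharged tRNA) differed by -0.23 to 0.47 and was not called, though at left 30 min it was called at 0.56 with each array centred on its median.

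Of the eIF4E-binding proteins, Eif4ebp1 rose in the left lungs at 3 h. It had 394 to 556 in controls (median 450) and 692, 628 and 515 there, with replicate 3 within the control range and a difference of 0.41 ± 0.13 (limma adjusted p = 0.018). The call ended without left 3 h replicate 1 or 2. The right 3 h difference was 0.35 and not called, though it was called with quantile normalization (0.43) and median centring (0.44). Eif4ebp2 (-0.21 to 0.20) and Eif4ebp3 (-0.33 to -0.02) were not called.

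Of the 9 elongation members limma called 2 lower at left 3 h (22.2%, near the 23.9% of all probe sets) and 1 lower at right 3 h (11.1% beside 13.2%). Eef1a1, the factor that delivers aminoacyl-tRNA and the brightest of the factors in controls (mean 10393), differed by -0.07 to 0.06 with an SE of 0.10. Eef1a2, the form typical of muscle and neurons, was dim and differed by -0.46 to 0.19. Eef2, the translocase, differed by -0.19 to -0.07 with an SE of 0.12. Its kinase Eef2k fell in left 3 h lungs, from 383 to 526 in controls (median 438) to 177, 282 and 354, all below the controls (-0.72 ± 0.20, limma adjusted p = 0.0099). The call ended without left 3 h replicate 1, and a second probe set gave -0.14. Eef1akmt1, a methyltransferase of eEF1A, had 164 to 215 in controls (median 195), 133, 127 and 140 in left 3 h lungs, and 165, 111 and 109 in right 3 h lungs. It fell by 0.45 and by 0.51 on the log2 scale (limma adjusted p = 0.0097 and 0.0082). The gene was dim, and these 3 h signals all lay below 173.6, the level of the low-signal filter. The right 3 h call ended without right 3 h replicate 3.

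**Figure D4:**
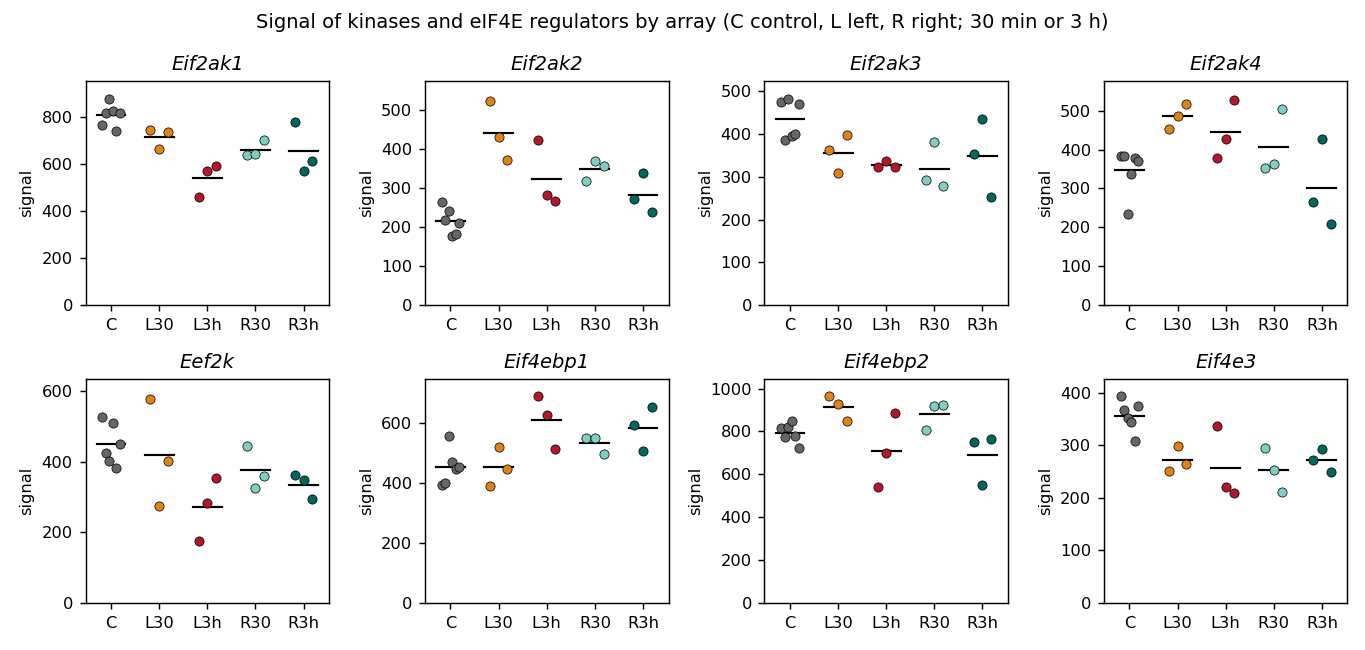
Signal of the 4 eIF2 kinases, Eef2k, 2 eIF4E-binding proteins and Eif4e3 on each array, on linear axes from 0, with the group mean as a bar (C control, L left, R right). Eif2ak2 is above most controls in all operated groups, while Eef2k and the probe set shown for Eif2ak1 are lowest in left 3 h lungs.

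Across roles, eIF2 had the highest median difference in every comparison with control (0.36, 0.56, 0.30 and 0.47 over 3 subunits). This median is the value of Eif2s1, the middle of the 3 subunits. Of the 3, 2, 2, 1 and 2 were called (66.7%, 66.7%, 33.3% and 66.7%), beside 19.9%, 37.8%, 13.4% and 21.4% of all probe sets. The left 30 min call of Eif2s1 ended with any 1 of its arrays left out. The 26 large subunit and 13 small subunit proteins had near-equal medians in each comparison, at -0.09 for both in left and in right 30 min lungs, -0.01 and -0.02 in left 3 h lungs and 0.11 for both in right 3 h lungs. The 9 elongation members had medians of -0.15 to -0.03.

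Some factor calls ended with fewer arrays or another scaling. Without the 3 arrays of highest actin ratio the left 30 min group is 1 array, and the differences there of Eif2s2 (0.60 against 0.51 with all arrays), Eif2s1 (0.44 against 0.36), Eif3b (0.51 against 0.59) and Eif2b5 (-0.20 against -0.43) were not called. With 2 arrays left, the right 30 min differences of Eif4g3 (0.49), Eif4e3 (-0.35) and Eif3k (-0.43) were not called. The values of Eif2ak2 and Eif4g3 on the single left 30 min array were 0.94 and 0.94 above control, against 0.96 and 0.81 with all arrays. With quantile normalization or median centring, the left 3 h falls of Eef1akmt1, Eif4e3 and Eif2ak3 were -0.21 to -0.31 and not called, and with quantile normalization Eif4h was 0.16 on both sides and not called. Of the 20 left 3 h calls, 10 were kept in every fit that left out 1 array. They were the rises of Eif1a, Eif2s1, Eif2s2, Eif4a1, Eif4a3, Eif4e, Eif4h and Eif6 and the falls of the dim Eef1akmt1 and of Eif2ak1.

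**Figure D5:**
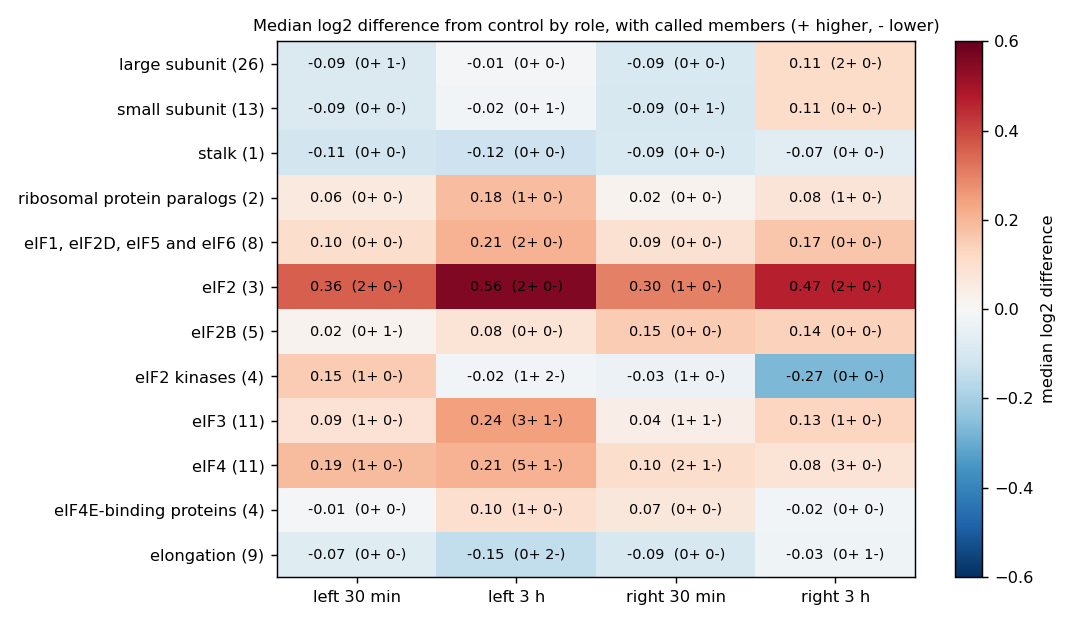
Median log2 difference from control for each role of ribosomal proteins and factors (rows, with the number of tested genes) in the 4 operated groups (columns), as colour and number; the counts in parentheses are members called higher (+) and lower (-) by limma. The medians of subunit proteins stay within 0.11 of 0 while that of eIF2 ranges from 0.30 to 0.56.

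Left and right lungs of the same time were not told apart by single members in a fit without pairing. The 2 sides share rats, but the labels do not say which lungs belong together. A difference within rats could therefore have been missed. At 30 min limma called 0 of 42 ribosomal proteins and 0 of 55 factors (2 and 2 at an unadjusted p under 0.05), beside 0.038% of all probe sets (8.59% unadjusted). At 3 h it again called 0 and 0 (1 and 5 at an unadjusted p under 0.05), beside 2.28% (17.5% unadjusted). The ribosomal proteins were nonetheless mostly lower on the left at 3 h. The difference was negative in 39 of 42, with a median of -0.12 beside -0.07 over all probe sets and -0.11 over the 283 bright ones. Without left 3 h replicate 3 the median was -0.03, with 27 negative, and with median centring it was -0.05. In 5 genes (Rpl5, Rpl39, Rps3, Rps23 and Rps29, 11.9%) every left lung lay below every right lung, and in 0 above, where 9.38% of all probe sets did so in the lower direction. Among factors, all left 3 h lungs lay above all right 3 h lungs for Eif4e and Eif3j (0.43 ± 0.16 and 0.41 ± 0.14), as for 7.5% of all probe sets, and below for Eef1a2 (-0.48 ± 0.23).

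Between 30 min and 3 h in the left lungs, limma called 0 ribosomal proteins and 0 factors (2 and 11 at an unadjusted p under 0.05), beside 3.47% of all probe sets (22.2% unadjusted). Without left 3 h replicate 3, however, 5 factors were called, Eif1a (1.02), Eif6 (0.81), Eif4e (0.62) and Eif2s2 (0.54) higher at 3 h and Eif4ebp2 (-0.55) lower. Rps9 was then the single ribosomal protein called (0.48). With all arrays these 5 factors gave 0.76, 0.58, 0.49, 0.41 and -0.38. Without left 30 min replicate 2, Eef2k was called lower at 3 h (-0.83). In the right lungs limma called 0 of 55 factors over time (5 at an unadjusted p under 0.05). The change of the left-right difference from 30 min to 3 h was also fitted without pairing. It was called in 0 ribosomal proteins and 0 factors (1 and 0 at an unadjusted p under 0.05), beside 0.228% of all probe sets (7.03% unadjusted).

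Genes that feed the same machinery were read from 6 lists. Of 20 tested genes of aminoacyl-tRNA synthetases, which charge tRNAs with amino acids, and their scaffold, limma called 11 higher (55%) and 1 lower (5%) in left 3 h lungs, beside 13.8% and 23.9% of all probe sets, with a median of 0.33. Yars1 rose there by 1.28 and Cars1 by 0.97. They also rose at left 30 min, by 0.73 and 0.46, and Yars1 at right 3 h by 0.66. At left 30 min the counts were 3 and 0 (15% higher beside 8.7%), at right 30 min 2 and 0 (10% beside 6.07%), and at right 3 h 2 and 2 (10% each beside 8.24% and 13.2%). Of 34 ribosome biogenesis genes, 16 rose (47.1% beside 13.8% of all probe sets) and 1 fell in left 3 h lungs, and 11 rose (32.4% beside 8.7%) and 0 fell in left 30 min lungs. In right 30 min lungs 5 rose and 0 fell, and in right 3 h lungs 5 rose and 1 fell (14.7% higher in each, beside 6.07% and 8.24%). The medians were 0.36, 0.32, 0.27 and 0.31 in this order. The nucleolar GTPase Gnl3 rose by 0.99 (left 30 min), 1.34 (left 3 h), 0.82 (right 30 min) and 0.73 (right 3 h), and Dkc1, the pseudouridine synthase, by 0.83 and 0.87 in the left lungs. Ubtf, a factor of ribosomal RNA transcription, fell by 0.62 at left 3 h and by 0.36 at right 3 h.

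Of 72 tested genes of the mitochondrial ribosome and its factors, 19 fell at left 3 h, a share of 26.4% that is near the 23.9% of all probe sets, and 4 rose (5.56% beside 13.8%). Mrpl34 fell there by 0.65 on the log2 scale and Mrpl10 by 0.58, and Mrps6 rose by 1.22. Elsewhere 1 rose and 3 fell (left 30 min, 1.39% and 4.17% beside 8.7% and 11.2%), 3 and 1 (right 30 min, 4.17% and 1.39% beside 6.07% and 7.29%) and 3 and 2 (right 3 h, 4.17% and 2.78% beside 8.24% and 13.2%). Of 11 termination, recycling and poly(A) genes, 3 rose and 1 fell at left 3 h, a total of 4 that is near the 37.8% of all probe sets. These included the release factor Etf1 (1.02), the rescue factor Pelo (1.10) and the poly(A) partner Paip1 (-0.63). Etf1 also rose by 0.55 at left 30 min and 0.42 at right 3 h, and Paip1 fell by 0.33 at left 30 min. The counts were 1 and 1, 0 and 0, and 1 and 0 in left 30 min, right 30 min and right 3 h lungs, beside 19.9%, 13.4% and 21.4% of all probe sets called. Pelo and Etf1 were also higher in left than in right lungs at 3 h, by 1.07 and 0.60 (limma adjusted p = 0.0027 and 0.044).

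Of 20 genes of eIF2 and mTOR signalling, 4 rose and 1 fell at left 30 min (20% and 5%, beside 8.7% and 11.2% of all probe sets) and 4 and 4 at left 3 h (20% each, beside 13.8% and 23.9%). At right 30 min and at right 3 h 3 rose and 2 fell (15% and 10%, beside 6.07% and 7.29% at 30 min and 8.24% and 13.2% at 3 h). Atf4, the transcription factor translated when eIF2 is phosphorylated, rose by 0.80, 1.33, 0.80 and 0.71 in left 30 min, left 3 h, right 30 min and right 3 h lungs (limma adjusted p = 0.00041, 1.9e-06, 0.00059 and 0.0010). Ppp1r15a (GADD34), which guides dephosphorylation of eIF2, rose by 1.08 and 1.67 in left lungs and by 0.80 in right 30 min lungs, and was 0.29 and not called in right 3 h lungs. Impact, an inhibitor of GCN2, rose by 0.86 and 0.95 in left lungs and by 0.60 in right 3 h lungs. Tsc2, a brake on mTOR, fell by 0.52 and 0.82 in right lungs at 30 min and 3 h and by 0.71 in left 3 h lungs, and was -0.32 and not called at left 30 min. Larp1, which binds TOP messengers, rose by 0.82 in left and 0.87 in right 30 min lungs. At 3 h Ddit3 (CHOP), Ppp1r15a and Atf4 were higher in left than in right lungs, by 1.36, 1.38 and 0.63 (limma adjusted p = 0.0027, 0.023 and 0.034). Of 4 other measured genes with TOP messengers, Hnrnpa1 was called, by 1.19, 0.82, 0.65 and 0.53, and the other 3 were not called in any of the 4 comparisons.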

How the data were processed

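The deposited table held 15923 probe sets on 18 arrays as signals on a linear intensity scale, made with MAS5 per the submitters' processing notes (its version is not given in the sources used here). The authors had scaled each array to a 2% trimmed mean of 500.1. The 57 control probe sets were left out. Signals were analysed as log2(signal + 25), and the 10533 probe sets with at least 3 arrays above the 40th percentile (173.6) were tested. The number of arrays per group, 3 or 6, limits the precision. The pseudocount understates the change of dim genes.

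Names came from the platform annotation of 2016, in which 12783 probe sets had 1 symbol, 312 several and 2771 none. A check by Entrez identifier against RefSeq changed 0 member symbols, and 2 members (Rpl37a and Rps9) had no entry there. limma 3.58.1 in R 4.3.3 fitted 5 group means over all 18 arrays, with Benjamini-Hochberg adjustment per comparison and a threshold of 0.05. Python 3.11.15 with numpy 2.4.6, pandas 2.3.3, scipy 1.17.1 and matplotlib 3.10.9 served for counts and figures. The fit was tested on simulated data.

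Most genes were named by rule. Called members were named, up to 6 rises and 6 falls per class against control. Listed paralogs, eIF2, eIF2B, kinases, eIF4E-binding and stalk proteins were named whatever their values. Up to 3 called genes were named per pathway list and comparison. Rps6, Eef2, Eif4b and members named for groups without overlap, such as Rps3, Rpl5 and Rpl26, fell outside this rule. The members and lists were chosen with earlier results of these data known. Pdk1, which is not the PDPK1 kinase of mTOR signalling, was taken out of that list after the results were seen; it had been called higher in right 30 min lungs. Alternatives were another pseudocount (100), no filter, quantile normalization, median centring, the mean of all probe sets, a replicate block, and arrays left out singly or by actin ratio.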

Additional observations from a re-analysis of the deposited data

Results flagged for a closer look

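Of 51 named members tested for a stray array among the 6 controls, 3 had a lowest control far from the other 5 by Dixon's ratio, the gap divided by the range. Chance flags about 1 in 20 groups. The ratio was 0.687 for Eif2ak4, where control replicate 3 had a signal of 234 and the others 337 to 384. It was 0.652 for Eef1a1, where control replicate 2 had 8660 and the others 10346 to 11244. It was 0.649 for Rpl7l1, where control replicate 6 had 794 and the others 909 to 972.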

How the results depend on the processing

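Of 47 called member differences, 18 were kept in every fit that left out 1 array, and 11 in these and every other setting tried. With arrays left out singly, counts of ribosomal proteins called against control ranged from 0 to 1 (left 30 min), 0 to 4 (left 3 h), 0 to 1 (right 30 min) and 1 to 2 (right 3 h). For factors they ranged from 3 to 5, 11 to 21, 4 to 7 and 2 to 9, and from left 30 min to left 3 h from 0 to 1 for ribosomal proteins and 0 to 5 for factors. Ribosomal protein counts, 1, 2, 1 and 3 in the order above, became 3, 5, 2 and 1 with quantile normalization. Without the filter they became 0, 0 and 1 in left 30 min, right 30 min and right 3 h lungs, and with median centring 0 (left 30 min) and 5 (right 3 h). Without the 3 arrays of highest actin ratio, which leaves 1 left and 2 right 30 min arrays, they were 0 at left and right 30 min, and the left 30 min factor count, 6, was 2; the lone array is assumed to vary like the other groups. Replicate numbers are shared by left and right lungs, but the labels do not say that they mark rats, so they were not taken as pairs. At 30 min lungs of the same number deviated together (r = 0.12, 0.31 and 0.15), each the highest r of its left lung. At 3 h they did not (-0.17, 0.07 and -0.15). Control rats share only a number with operated rats. Left against right at 30 min gave 0 and 0 calls with the block as without it. With the replicate block, 15 of the 47 calls were kept: factor counts were 2, 10, 0 and 2 and ribosomal protein counts 0, 0, 1 and 0 in left 30 min, left 3 h, right 30 min and right 3 h lungs. Eif4g1 at left 30 min, 0.21 and not called, reversed to -0.40 (limma adjusted p = 0.042) with the mean of all probe sets. A pseudocount of 100 kept all 47 calls. The cause of these changes was not tested.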
